A study of Homo sapiens with 4 samples.

Results

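The genes described here are 10 transcription factor genes, many of them of the immediate-early class. They are the AP-1 subunits FOS, FOSB, FOSL1, FOSL2, JUN, JUNB and JUND, the early growth response factors EGR1 and EGR2, and KLF6. They were followed in T-47D cells, an established luminal, hormone receptor-positive breast cancer line. A member's probesets were those that the platform annotation pairs with its symbol and no other, which gave 95 of the 232479 probesets of the table. In one group, with 2 arrays, the cells had received 200 nM of the p-27-5p mimic, p-27-5p being an artificial microRNA. In the other, also with 2 arrays, they had received the pre-miR negative control, whose dose the labels do not state. Both groups were grown in DMEM with serum, and TurboFect was the transfection reagent. The labels give no interval between transfection and RNA extraction. Nor do they name separate cultures behind the 2 arrays of a group, so the p-values reflect array-to-array spread that may be technical. The design text speaks of mimic and control pairs without saying what a pair shares. Unless stated, the fits below ignore pairs, and a fit that blocks on replicate number is given at the end.

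AP-1 is a dimer of basic leucine zipper proteins. JUN proteins can pair with each other or with FOS proteins, while FOS proteins need a JUN partner to bind DNA. Most genes of both families, and EGR1 and EGR2, are switched on within minutes of growth factor or stress signals through the MAP kinases and then decline again, whereas JUND is present in most cells at a steady level. EGR1, EGR2 and KLF6 are zinc finger proteins that bind GC-rich promoter sequences.

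KLF6, JUNB and JUN had the largest differences of mimic over control arrays, 0.65, 0.72 and 0.39 on the log2 scale, or 1.57-fold, 1.65-fold and 1.31-fold. EGR1 followed with 0.34, and in these 4 genes both mimic arrays lay above both control arrays. In RNA of whole cultures, a different number of cells expressing a gene and a different amount of its RNA per cell cannot be told apart. FOS, FOSB, FOSL1, FOSL2, JUND and EGR2 had differences from -0.20 to 0.22, and their groups overlapped. After adjustment over all genes limma called 0 of the 10 members in either direction, while 2.31% of the 15719 genes tested passed, 1.52% as higher and 0.789% as lower in the mimic arrays. At an unadjusted p under 0.05, 3 members, KLF6, JUNB and JUN, were higher and none was lower, beside 7.65% of all genes that were higher, 12.8% that were lower and 20.4% in either direction. The 4 members whose mimic arrays lay above their control arrays stand beside 20.5% of all genes, and the 0 members whose mimic arrays lay below beside 29.5%. The difference was above 0 in 7 of 10 members and in 50.3% of all genes.

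**Figure D1:**
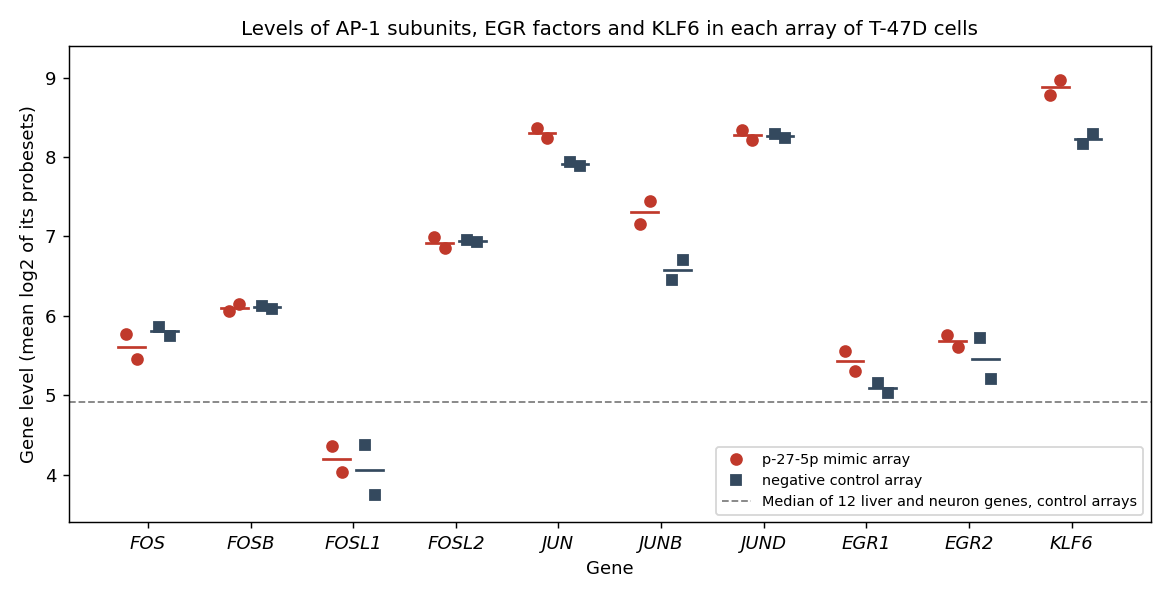
Gene level on each array, as the mean log2 value of the probesets of a gene (vertical axis), for the 10 genes (horizontal axis). Circles are the 2 mimic arrays, squares the 2 control arrays, and short bars their means. The dashed line at 4.92 is the median control level of 12 liver and neuron genes. The mimic arrays lie above the control arrays for JUN, JUNB, EGR1 and KLF6, and the groups overlap for the others.

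Gene levels are means of log2 probeset values, a probeset reading about 1 exon or part of one, after dim probesets were left out. Of the members' 95 probesets 83 passed that filter, among them all 14 of JUN and of FOSL2, all 10 of KLF6, 7 of JUND and 5 of JUNB, but 1 of 3 for FOSL1 and 4 of 8 for EGR2. Levels of different genes come from different probes, so setting them side by side, as below, is only approximate. As a gauge of background, 12 liver and neuron genes had mimic levels of 4.34 to 6.43 with a median of 5.02. Their control levels ran from 3.78 to 6.85 with a median of 4.92. The second highest were 6.02 in mimic and 5.79 in control arrays. FOSL1 lay below the median of these genes in both groups, and FOS, FOSB, EGR1 and EGR2 lay within their range, as did JUNB in control arrays. FOSB and control JUNB lay above all but the highest of these genes, and single probesets were brighter than the gene means. The brightest had a mean over the 4 arrays of 7.10 for FOS, 7.77 for FOSB, 6.87 for EGR1, 7.90 for EGR2 and 8.07 for JUNB. Array means were between 6.362 and 6.363, and the correlation over all probesets was 0.985 between the mimic arrays, 0.984 between the control arrays and 0.966 to 0.973 across the groups.

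Most luminal breast markers matched the labelled cell line, and the 10 had a median level of 9.88 in mimic and 9.82 in control arrays. TFF1 was the exception, at 6.54 in mimic and 6.43 in control arrays, its control level inside the range of the liver and neuron genes. The summed log2 levels of the 10 markers were 96.9 to 98.2 in mimic and 98.0 to 99.9 in control arrays. At an unadjusted p under 0.05, 3 of them were lower and none was higher, while limma called 0 of the 10. These 3 were the hormone receptor genes PGR (-0.60) and ESR1 (-0.42) and the keratin gene KRT19 (-0.48), with limma adjusted p-values of 0.135 to 0.148. Summed over the 6 measured fibroblast markers, the log2 levels were 30.6 to 31.6 in mimic and 27.5 to 29.4 in control arrays. For the 7 leukocyte markers the sums were 39.8 to 40.2 in mimic and 38.3 to 39.9 in control arrays, and for the 6 basal and mesenchymal markers 33.0 to 33.2 in mimic and 30.6 to 32.5 in control arrays. PTPRC, the pan-leukocyte surface phosphatase, was at 4.81 in mimic and 4.52 in control arrays, inside the range of the liver and neuron genes. The collagen gene COL1A2, at 5.47 and 5.24 in the same order of groups, was also inside it. Other markers were not alike. The leukocyte marker CD3E lay above that range, at 6.96 in mimic and 7.38 in control arrays, as did CD14 in mimic arrays (6.68). The fibroblast markers FAP and LUM had differences of 0.77 and 0.80 (limma adjusted p = 0.0916 and 0.127). The basal marker TP63 had 0.78 (limma adjusted p = 0.0671). The median difference was 0.34 for the fibroblast, 0.23 for the leukocyte and 0.17 for the basal and mesenchymal markers. It was 0.17 for the liver and neuron genes and -0.02 for the luminal markers. The 10 members had 0.18 and all genes tested 0.00. The part of these shifts in the members' values was not tested.

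Among the JUN genes, JUNB had the largest difference. JUNB encodes an AP-1 subunit that can activate genes or hold back JUN. Its levels were 7.16 and 7.44 in mimic arrays and 6.45 and 6.71 in control arrays. The groups did not overlap, and in each group the second array was the higher one. Its means were 7.30 ± 0.199 in mimic and 6.58 ± 0.184 in control arrays (SD, n = 2 each). The difference was 0.72 (SE 0.166), with a 95% confidence interval from 0.31 to 1.14, and limma's p was 0.00632 unadjusted and 0.101 adjusted. With 1 array left out the difference of JUNB ran from 0.58 to 0.87.

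JUN, the founding AP-1 subunit, had levels of 8.36 and 8.24 in mimic arrays and 7.93 and 7.89 in control arrays. The 2 arrays of each group lay close together, and both mimic arrays lay above both control arrays. The means were 8.30 ± 0.0889 in mimic and 7.91 ± 0.0287 in control arrays (SD, n = 2 each), and the difference of 0.39 (SE 0.123, 95% confidence interval 0.08 to 0.70) had a limma adjusted p of 0.172. JUND, the JUN gene with steady expression, had 8.34 and 8.21 in mimic arrays and 8.29 and 8.24 in control arrays. The control values of JUND lay between those of the mimic arrays, and the interval of its difference was -0.30 to 0.32.

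No FOS gene differed beyond the spread of its arrays. FOS, the classic serum-induced partner of JUN, had 5.77 and 5.45 in mimic arrays and 5.86 and 5.75 in control arrays, a difference of -0.20 (95% confidence interval -0.59 to 0.20, limma adjusted p = 0.539). This was the lowest difference among the members. FOSB, whose protein is best known from long-lasting responses in neurons, had 6.06 and 6.15 in mimic arrays and 6.12 and 6.09 in control arrays, with an interval from -0.31 to 0.30. FOSL2, which encodes Fra-2, had 6.99 and 6.85 in mimic arrays and 6.95 and 6.93 in control arrays, with an interval from -0.34 to 0.29. FOSL1, which encodes Fra-1, had 4.35 and 4.03 in mimic arrays and 4.37 and 3.74 in control arrays on the 1 probeset that passed the filter. No difference of FOSL1 was detected on it (0.14, 95% confidence interval -0.48 to 0.76).

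EGR1, an activator induced by ERK signalling, had 5.55 and 5.30 in mimic arrays and 5.15 and 5.02 in control arrays. The groups did not overlap, although the gap between the lower mimic and the higher control array was smaller than the spread of the mimic arrays. The difference was 0.34 (SE 0.145, 95% confidence interval -0.03 to 0.71), with a limma adjusted p of 0.274. EGR2, known for its role in myelination and in lymphocytes, had 5.76 and 5.60 in mimic arrays and 5.72 and 5.20 in control arrays. Control replicate 1 of EGR2 lay between its mimic arrays, and the difference of 0.22 had an adjusted p of 0.599.

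KLF6, a Krüppel-like factor that binds GC boxes and is often described as a candidate tumour suppressor, had the smallest p of the 10 members. Its levels were 8.79 and 8.97 in mimic arrays and 8.17 and 8.29 in control arrays, with a clear gap between the groups. The means were 8.88 ± 0.129 in mimic and 8.23 ± 0.0855 in control arrays (SD, n = 2 each). The difference was 0.65 (SE 0.135, 95% confidence interval 0.31 to 0.99), and limma's p was 0.00411 unadjusted and 0.0844 adjusted. KLF6 and JUNB both passed when dim probesets were kept (limma adjusted p = 0.0145 and 0.0160). They also passed with an intensity trend in limma's prior variance (adjusted p = 0.0112 and 0.0240). All probesets of both genes had already passed the filter, and their differences stayed at 0.65 and 0.72 in either setting. With either mimic array left out, both had adjusted p-values of 0.235 to 0.369.

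**Figure D2:**
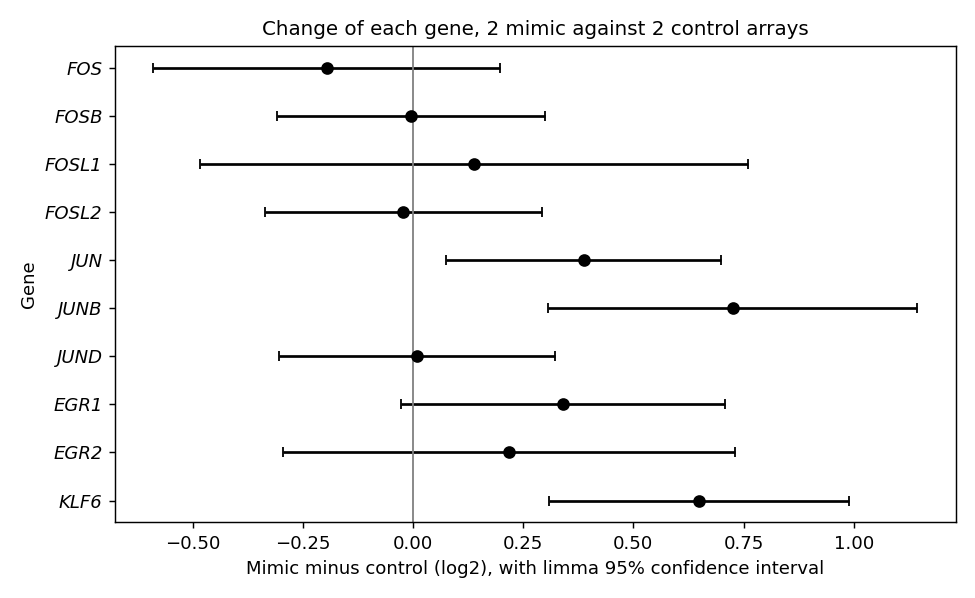
Difference between mimic and control arrays on the log2 scale (horizontal axis) for the 10 genes (vertical axis). Points are limma estimates from 2 arrays per group and bars are 95% confidence intervals. The intervals of JUN, JUNB and KLF6 lie above 0, from 0.08, 0.31 and 0.31 upward, and the other 7 include 0.

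Differences depended on level across the whole table, so each member was also set beside genes whose mean level lay within 0.5 of its own. The median difference of those genes was -0.11 around KLF6, -0.06 around JUNB, -0.10 around JUN and -0.10 around JUND, but 0.11 around EGR1, 0.09 around EGR2, 0.08 around FOS and 0.15 around FOSL1. Of 2273 genes near KLF6, 49 (2.16%) had a larger positive difference, as had 73 of 2484 (2.94%) near JUNB. The share was 6.43% for JUN and 16.3% for EGR1. FOS stood at the other end, since 84.0% of the genes near its level had a higher mimic minus control difference than its own. Without control replicate 2 the median over the 10 members was -0.02 and without control replicate 1 it was 0.41, against 0.18 with all arrays, so that median rested on single control arrays. It was 0.09 without mimic replicate 1 and 0.30 without mimic replicate 2.

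The stretches of 150 bases before the annotated transcription start of KLF6, JUNB, JUN and EGR1 are shown because these are the 4 genes whose mimic and control arrays did not overlap. They come from RefSeq on build GRCh38.p14, at chr10:3785210-3785359, minus strand; chr19:12791336-12791485, plus strand; chr1:58784048-58784197, minus strand; and chr5:138465329-138465478, plus strand. Capitals mark matches, on either strand, to an EGR site (GNGGGCG), a CArG box, which is the serum response element, and a TATA box (TATAAA).
KLF6: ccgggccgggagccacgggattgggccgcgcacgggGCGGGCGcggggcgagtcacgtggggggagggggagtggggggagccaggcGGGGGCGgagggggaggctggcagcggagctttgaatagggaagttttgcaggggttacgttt
JUNB: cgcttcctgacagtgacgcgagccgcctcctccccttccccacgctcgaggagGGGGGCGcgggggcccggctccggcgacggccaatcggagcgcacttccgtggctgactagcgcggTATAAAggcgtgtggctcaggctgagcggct
JUN: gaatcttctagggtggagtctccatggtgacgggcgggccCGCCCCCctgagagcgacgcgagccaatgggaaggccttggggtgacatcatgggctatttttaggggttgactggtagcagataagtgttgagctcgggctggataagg
EGR1: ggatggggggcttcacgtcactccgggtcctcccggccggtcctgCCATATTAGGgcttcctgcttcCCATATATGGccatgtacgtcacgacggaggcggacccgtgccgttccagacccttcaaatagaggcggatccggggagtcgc

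Counted back from -1 at the base before the start, KLF6 held EGR sites at -114 to -108 and -63 to -57, JUNB 1 at -97 to -91 with a TATA box at -31 to -26, and JUN 1 at -110 to -104 on the opposite strand. EGR1 held CArG boxes at -105 to -96 and -83 to -74 in the stretch shown. Windows from 250 bases before to 50 after a start were available for 9 of the 10 members, with 3 starts for EGR2 and so 11 windows in all. An EGR site was in 9 of these 11, and in 39.9% of the 35116 windows of the whole RefSeq table. A GC box (GGGCGG), whose letters overlap those of the EGR site, was in 8 of 11 windows and in 44.95% of all windows. A CArG box was in 2 of 11, those of EGR1 and 1 start of EGR2, and in 1.29% of all windows. The letters of a TATA box were in 3 of 11 (11.5% of all windows), of an AP-1 site (TGANTCA) in 1 of 11, that of FOSL2 (7.71%), and of the CRE core (GACGTC) in 2 of 11 (5.03%). An NF-kB site and an interferon-stimulated response element were in 0 of 11, beside 5.91% and 3.57% of all windows. These matches describe letters only.

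Single probesets showed how evenly each transcript differed. Limma called 0 of the members' 83 probesets after adjustment over 163774 probesets, of which 0.918% passed, 0.823% as higher and 0.0946% as lower in the mimic arrays. At an unadjusted p under 0.05, 15 were higher and 2 were lower, beside 6.31% and 9.01% of all probesets. Both mimic arrays lay above both control arrays on 36 of the 83 probesets and below them on 10, beside 20.7% and 27.1% of all probesets. The difference was above 0 on 59 of the 83, and on 46.5% of all probesets. Probesets of 1 gene read the same transcript and are not independent.

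KLF6 and JUNB were even in direction. For KLF6 all 10 probesets were higher in the mimic arrays, by 0.27 to 1.07, and 8 of them did not overlap. Its brightest probeset had 10.97 and 11.05 in mimic arrays and 10.26 and 10.17 in control arrays. JUNB was higher on all 5 of its probesets, by 0.19 to 1.01, and 4 did not overlap. The brightest of them had 8.61 and 8.55 in mimic arrays and 7.54 and 7.59 in control arrays, with a limma adjusted p of 0.114, the lowest of any member's probeset.

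JUN was less even. On 12 of its 14 probesets both mimic arrays lay above both control arrays, and the differences ran from -0.20 to 0.9994. The probeset with the largest difference had 9.92 and 9.69 in mimic arrays and 8.80 and 8.81 in control arrays, and another 2 had differences of 0.92 and 0.77. With the median of its probesets JUN had 0.66 (adjusted p = 0.226). The brightest had 9.92 and 10.03 in mimic arrays and 9.69 and 9.67 in control arrays, a difference of 0.29. JUND held probesets in both directions, with 4 above and 2 below without overlap. Its brightest probeset had 10.44 and 10.16 in mimic arrays and 9.77 and 9.97 in control arrays, while its dimmest had 5.41 and 5.92 in mimic arrays and 6.34 and 6.41 in control arrays. The near-zero gene value of JUND was thus a mean of probesets that differed in sign.

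Among the dimmer genes, EGR1 had 4 probesets without overlap above and 1 below, of the 10 that passed, with differences from -0.32 to 0.83. EGR2 was read mainly by 1 probeset, with 8.39 and 8.22 in mimic arrays and 7.95 and 7.03 in control arrays, a difference of 0.82 (limma adjusted p = 0.349). Its other 3 probesets had mean levels of 4.30 to 5.33. FOS was lower in the mimic arrays on 6 of 7 probesets, 2 of them without overlap, with differences down to -0.68. On the other probeset both mimic arrays lay above both control arrays, by 0.51. FOSL2 was higher on 7 and lower on 7 probesets, and FOSB was higher on 7 and lower on 4. The brightest FOSL2 probeset had 9.25 and 9.24 in mimic arrays and 8.79 and 8.84 in control arrays, against a gene value of -0.02.

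**Figure D3:**
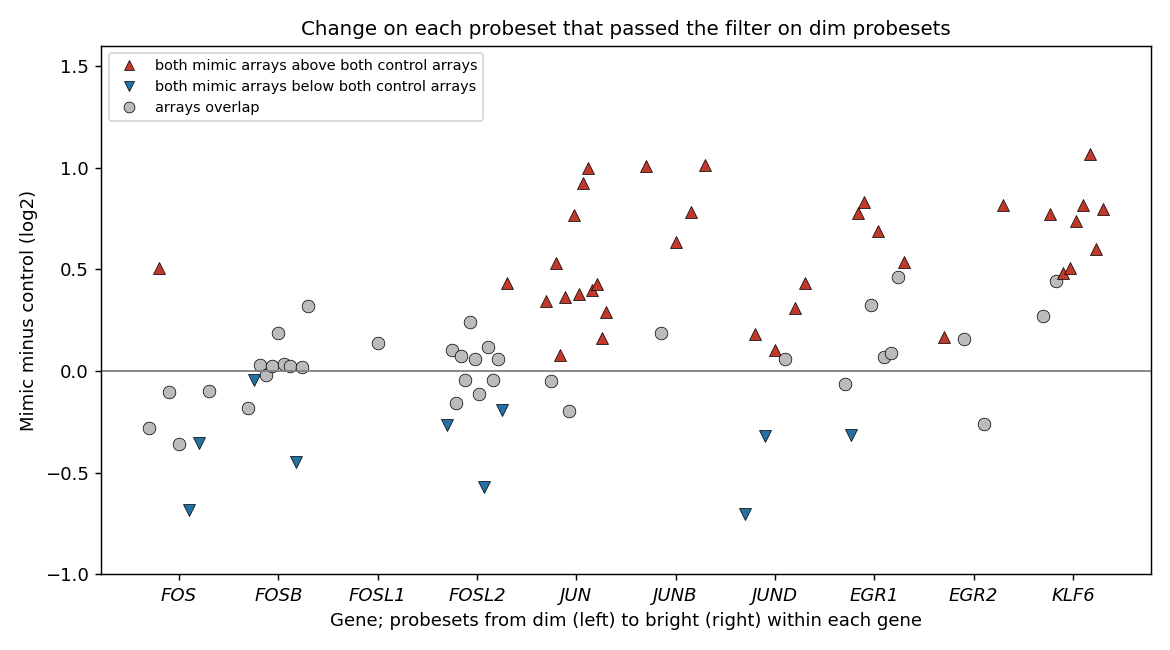
Difference between mimic and control arrays on the log2 scale (vertical axis) for each of the 83 probesets that passed the filter, by gene (horizontal axis) and ordered from dim to bright within a gene. Upward triangles mark probesets where both mimic arrays lay above both control arrays (36), downward triangles the reverse (10) and circles overlap (37). KLF6 and JUNB lie above 0 throughout, and JUND, FOSL2 and FOSB lie on both sides.

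Other factors of the same families included larger changes than any member. The counts of called genes in the lists below stand beside 1.52% of all genes called as higher and 0.789% as lower. These lists were chosen with earlier results of these data known, so their counts are a description only. Of 15 measured basic leucine zipper partners of AP-1, 2 rose, none fell and 13 did not pass, with a median of 0.14. BATF2, an interferon-inducible partner of JUN proteins, had 7.253 and 7.254 in mimic arrays and 5.41 and 5.08 in control arrays, and rose by 2.01 (SE 0.155, limma adjusted p = 0.00476). BATF2 had 3.10 with the median of its probesets and 0.36 with the brightest (adjusted p = 0.529 for the brightest). CEBPB, a regulator of acute-phase and inflammatory genes, rose by 0.95 (adjusted p = 0.0280), with 8.37 and 8.34 in mimic arrays and 7.34 and 7.46 in control arrays. MAFF, a small MAF protein, had 0.68 (adjusted p = 0.102). Without mimic replicate 1 or 2 CEBPB missed the threshold (adjusted p = 0.166 and 0.140), as it did with the median of its probesets (0.119) and with the brightest (0.203), while BATF2 passed without either (0.0103 and 0.0108).

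Of 18 further EGR and KLF factors with the NAB corepressors, 1 rose and none fell, with a median of 0.01. KLF4, a regulator of epithelial differentiation, had 7.26 and 7.41 in mimic arrays and 5.73 and 5.84 in control arrays, and rose by 1.55 (SE 0.129, limma adjusted p = 0.00680). It passed in each of the 12 alternatives run on single genes. WT1, which binds sites like those of EGR1, had 0.71 (adjusted p = 0.0639) and the repressor KLF3 had 0.74 (adjusted p = 0.106).

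Of 24 other immediate-early genes, none rose, 1 fell and the median was 0.10. The kinase gene SGK1 fell by 1.22 on the log2 scale (SE 0.144, limma adjusted p = 0.0217), with 5.63 and 5.36 in mimic arrays and 6.74 and 6.68 in control arrays. It missed the threshold without mimic replicate 2 (adjusted p = 0.0943), with only probesets above the table's median (0.0693) and with its brightest probeset (-0.86, adjusted p = 0.362). ZFP36L2, which promotes decay of AU-rich mRNAs, and MYC had 0.49 and 0.53 (adjusted p = 0.149 and 0.177). At an unadjusted p under 0.05, 4 genes of this list were higher and 2 lower, beside 7.65% and 12.8% of all genes.

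Upstream of AP-1 and the EGR genes, 1 of 30 kinases and factors rose and none fell, with a median of -0.02. MAP3K8, a kinase that feeds the ERK pathway downstream of inflammatory receptors, had 5.76 and 5.87 in mimic arrays and 4.80 and 4.82 in control arrays, and rose by 1.001 (SE 0.122, limma adjusted p = 0.0240). MAP3K8 had 0.05 with its brightest probeset (adjusted p = 0.919) and with only probesets above the table's median (0.864), and without mimic replicate 1 or 2 the adjusted p was 0.108 and 0.144. MAP2K3, which activates p38, had 0.63 (adjusted p = 0.0925), and the p38 kinase gene MAPK13 had -0.49 (adjusted p = 0.131).

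Of 26 measured AP-1 target genes 1 rose and none fell, with a median of 0.21, beside 1.52% and 0.789% of all genes. At an unadjusted p under 0.05, 8 were higher and 1 was lower, beside 7.65% and 12.8% of all genes. The list was dim, with a median control level of 5.30. Genes within 0.5 of the EGR1 level of 5.26 had a median difference of 0.11. The part of that shift in this list was not tested. PLAUR, the urokinase receptor, rose by 0.83 (SE 0.124, limma adjusted p = 0.0436), with 5.43 and 5.55 in mimic arrays and 4.69 and 4.63 in control arrays, all inside the range of the liver and neuron genes. It had 0.16 with its brightest probeset (adjusted p = 0.756) and with only probesets above the table's median (0.636), an adjusted p of 0.135 with the median of its probesets, 0.0509 with equal array medians, and 0.184 and 0.226 without mimic replicate 1 or 2. The monocyte chemokine CCL2 had 1.34 (adjusted p = 0.0514) and the cytokine LIF 1.11 (adjusted p = 0.0751), each on 2 probesets. Limma called 0 of 20 target genes of EGR1 and KLF6. At an unadjusted p under 0.05, 1 was higher, beside 7.65% of all genes. This was the death receptor TNFRSF10B, with 0.50 (adjusted p = 0.115). F3, the coagulation tissue factor, and the stress-responsive gene NDRG1 had 0.36 and 0.33 (adjusted p = 0.252 and 0.264). The median of that list was 0.07.

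**Figure D4:**
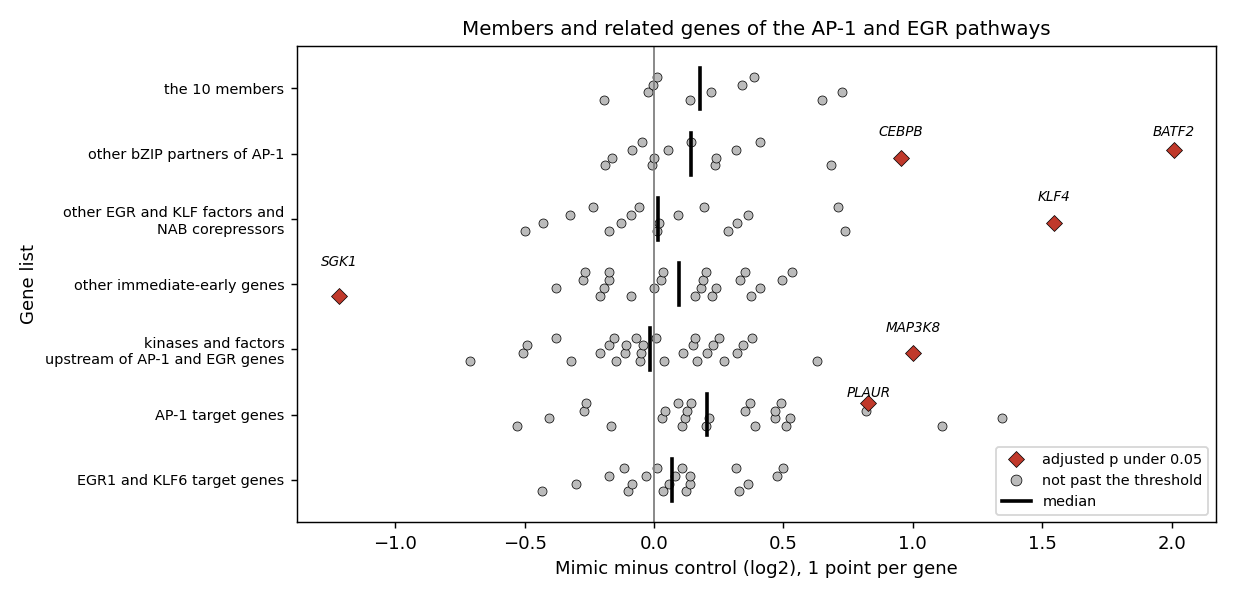
Difference between mimic and control arrays on the log2 scale (horizontal axis), 1 point per gene, for the 10 members and 6 lists of related genes (vertical axis). Diamonds passed a limma adjusted p of 0.05 and carry the gene's name, circles did not, and black bars are medians. The named genes run from SGK1 at -1.22 to BATF2 at 2.01, and none of the 10 members is among them.

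The genes whose 4 array values were nearest in pattern to those of the leading members were found by Euclidean distance after each gene was centred on its own mean. For KLF6 they were NPFFR1 (distance 0.0508), IFNGR2 (0.0600) and C4orf33 (0.0620), with differences of 0.67, 0.59 and 0.70. For JUNB they were TNFSF15 (0.0322), C1orf54 (0.0406) and ELOVL3 (0.0572), with differences of 0.73, 0.76 and 0.78. Each likeness rests on 4 arrays of 2 groups.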

How the data were processed

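Affymetrix exon arrays were read from 2 mimic and 2 control samples. The authors deposited 1 log2 value per exon-level probeset and array. The submitters' processing notes name Partek, RMA and the build hg18, with no versions or settings. Symbols were taken from GEO's annotation of the platform, where 216780 probesets carry 1 symbol. For genes other than the members, 25769 of these were updated through synonyms in RefSeq. A gene's value was the mean of its probesets with 1 symbol with a 4-array mean no lower than the 25th percentile of all table values (4.08).

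Mimic and control arrays were compared by the moderated, two-sided test of limma 3.58.1 under R 4.3.3, and p-values were adjusted by Benjamini-Hochberg across 15719 genes or 163774 probesets (threshold 0.05). There were 2 residual degrees of freedom, or 5.29 including the prior. The script was tested on simulated data. Plots used matplotlib 3.10.9. Precision is limited by the number of arrays.

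The members and gene lists were chosen with earlier results of these data known. Named were all members, the 3 genes of each list with the smallest p, any other list gene past the threshold, and the 3 genes nearest in pattern to each of the 2 leading members. Of the cell type markers, PTPRC and COL1A2 were named as defining markers, and the others for their level or difference. The alternatives were a replicate block, 2 normalizations, 2 filters, each array left out, 2 summaries of probesets, an intensity trend and a threshold of 0.1. RefSeq promoter windows (GRCh38.p14) were searched on both strands. Proteins were not analysed here.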

Additional observations from a re-analysis of the deposited data

How the results depend on the processing

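Of the 10 members, limma called 1 with the replicate block (JUNB, adjusted p = 0.0490), 1 with quantile normalization (KLF6, 0.0458), 2 without a filter, 2 with an intensity trend (KLF6 and JUNB each time), 1 at the threshold of 0.1 (KLF6) and 0 to 1 with 1 array left out. The count stayed at 0 with equal array medians, a filter at the table's median, and the median or the brightest probeset. Over the 12 alternatives run on single genes, JUNB had 0.58 to 1.01 (adjusted p 0.0160 to 0.369) and KLF6 0.56 to 0.80 (0.0112 to 0.364), and JUN (0.29 to 0.66) and EGR1 (0.21 to 0.54) also stayed above 0. Probesets of members called numbered 4 with the intensity trend and 0 in the other 10 alternatives run on probesets. Over all genes, 363 were called, against 1433 without a filter, 122 with the brightest probeset, 1594 with the trend, 979 at the threshold of 0.1 and 172 to 1691 with 1 array left out. The share of calls that were higher was 65.8%, and 58.6% with quantile normalization and 71.5% with equal array medians, but lower genes were the majority without a filter (37.7% higher), with the intensity trend (33.1%) and at the threshold of 0.1 (46.2%). It was 58.1% to 93.0% with 1 array left out, 60.8% with the replicate block, 57.8% with the filter at the median, 77.7% with the median of probesets and 94.3% with the brightest. The design text speaks of pairs without saying what they share. Deviations of same-numbered arrays from their group means correlated at 0.435 over 15719 genes, and the replicate block left 1 residual degree of freedom and called 498 genes.

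Of the members with smaller differences, FOS stayed below 0 over the 12 alternatives run on single genes (-0.38 to -0.04). The others changed sign in some alternatives, and none of these members passed in either direction. FOSB had 0.0014 with quantile normalization, 0.013 with equal array medians, 0.020 without a filter, 0.023 with the filter at the median, 0.23 with the median of probesets, 0.32 with the brightest, and -0.051 to 0.040 with 1 array left out. FOSL2 had 0.0093 with quantile normalization, 0.017 with the median of probesets, 0.43 with the brightest, and -0.090 to 0.047 with 1 array left out. FOSL1 had -0.10 without a filter and -0.18 to 0.45 with 1 array left out. JUND had -0.052 to 0.071 and EGR2 -0.039 to 0.48 with 1 array left out, and EGR2 had -0.053 with the median of probesets. With the brightest probeset JUND had 0.43 and EGR2 0.82, and EGR2 also had 0.82 with the filter at the median. Calls in the related lists also moved, to 0 to 4 for basic leucine zipper partners, 1 to 3 for EGR and KLF factors, 0 to 2 for immediate-early genes, 0 to 5 for upstream kinases, 0 to 6 for AP-1 targets and 0 to 1 for EGR1 and KLF6 targets. The cause of these moves was not tested.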
